A study of Rattus norvegicus with 24 samples.

Results

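The 4 midbrain arrays of a rat study of MK-801 form 2 dye swaps, 1 for each dose, among 24 arrays that cover 6 dissected brain regions. All 4 arrays whose labels name midbrain were used, and each log2 ratio was turned to MK-801 over saline from the dye given in the label. MK-801 (dizocilpine) enters NMDA-type glutamate receptors through their open pore and plugs it. Arrays 1 and 2 compare midbrain RNA of rats given 0.16 mg/kg MK-801 with saline midbrain RNA, and arrays 3 and 4 do so for rats given 0.08 mg/kg. MK-801 carried Cy5 on arrays 1 and 3 and Cy3 on arrays 2 and 4. The rats were 9 male Wistar rats aged 10 weeks, of which 3 received saline, and brains were taken 40 min after the injection. Both doses were set against saline midbrain from those 3 rats, so the doses share their saline side. The labels do not say which animals supplied the RNA of an array or whether RNA was pooled, so each dose counts as 1 comparison measured in both dye orientations, and no test was made within a dose.

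The midbrain holds the dopamine neurons of the substantia nigra and ventral tegmental area and, in the raphe, serotonin neurons. Serotonin neurons make their transmitter with tryptophan hydroxylase 2 (Tph2) and take it back up through the serotonin transporter (Slc6a4), while dopamine neurons use tyrosine hydroxylase (Th) and the dopamine transporter (Slc6a3). The midbrain borders the thalamus, the hypothalamus and the pons, and it carries meninges and blood vessels on its surface. The dopamine markers fitted the label: 13 of the 15 dopamine neuron genes on the array were brightest in midbrain among the 6 regions, as were Tph2 and Slc6a4, judged on the average brightness of both colours of the same probe.

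The starts of 4 genes are shown because the results turn on them: Tph2 was higher with MK-801 at both doses, Prkcd and Gabrd were lower at both doses, and Ccn1 had its largest ratios outside the midbrain. Each sequence is from RefSeq (build GRCr8), runs 5′ to 3′ on the gene's strand, and spans 300 bases around the start of the gene. Capitals mark matches on either strand to 5 motifs. The core promoter motif searched was TATAAA. The cyclic AMP response element was searched as TGACGTCA, and its shorter form as TGACG. The GATA factor motif was searched as AGATAA, and the ETS factor motif as CCGGAAGT. The shorter form lies within the full element.
Tph2 (chr7:52675590-52675889, minus strand): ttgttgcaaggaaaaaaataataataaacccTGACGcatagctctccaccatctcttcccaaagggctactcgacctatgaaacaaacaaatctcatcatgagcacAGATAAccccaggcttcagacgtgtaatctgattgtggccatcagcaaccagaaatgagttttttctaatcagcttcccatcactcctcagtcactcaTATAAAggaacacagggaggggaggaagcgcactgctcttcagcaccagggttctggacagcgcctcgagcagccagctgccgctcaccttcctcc
Prkcd (chr16:5805790-5806089, minus strand): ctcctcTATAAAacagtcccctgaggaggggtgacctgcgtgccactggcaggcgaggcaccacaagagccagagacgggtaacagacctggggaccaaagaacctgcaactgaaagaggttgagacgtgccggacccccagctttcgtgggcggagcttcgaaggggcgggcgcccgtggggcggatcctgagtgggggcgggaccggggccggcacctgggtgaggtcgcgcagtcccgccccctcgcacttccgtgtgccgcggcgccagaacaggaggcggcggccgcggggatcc
Gabrd (chr5:171252660-171252959, minus strand): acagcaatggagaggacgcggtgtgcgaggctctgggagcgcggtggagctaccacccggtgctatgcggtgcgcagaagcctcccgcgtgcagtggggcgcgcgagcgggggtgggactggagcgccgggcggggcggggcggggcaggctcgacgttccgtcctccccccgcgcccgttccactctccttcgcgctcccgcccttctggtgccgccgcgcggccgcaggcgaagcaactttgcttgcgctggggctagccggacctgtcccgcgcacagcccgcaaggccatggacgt
Ccn1 (chr2:237225640-237225939, minus strand): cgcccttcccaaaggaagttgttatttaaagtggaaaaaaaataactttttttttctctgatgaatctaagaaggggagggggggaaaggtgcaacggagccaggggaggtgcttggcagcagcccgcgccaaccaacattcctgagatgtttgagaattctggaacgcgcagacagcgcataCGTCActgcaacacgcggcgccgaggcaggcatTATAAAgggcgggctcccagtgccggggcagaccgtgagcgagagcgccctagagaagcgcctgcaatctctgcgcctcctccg

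Tph2 held TATAAA at position -46, AGATAA at -144 and TGACG at -219, counted from the start site. Ccn1 held TATAAA at -34 and TGACG on the other strand at -67. Prkcd held TATAAA at -244, and the Gabrd window held none of the 5 motifs. Of 33469 rat promoters of 300 bases, 14.2% held TATAAA, 21.2% TGACG, 11.6% AGATAA, 3.81% CCGGAAGT and 1.83% TGACGTCA. These matches describe the letters of the windows and show no binding.

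The arrays of a swap disagreed for most genes. Over the 19466 genes that were well above background in both colours on both high-dose arrays, the ratios of arrays 1 and 2 correlated at -0.508 across genes, and 27.7% of genes had the same sign on both. Over 22391 genes at the low dose, arrays 3 and 4 correlated at -0.456 and 29.9% had the same sign. Genes are not independent replicates, and these values describe the arrays only. The median size of the swap mean was 0.0554 at the high dose and 0.0548 at the low dose (log2), against a median distance of each array from that mean of 0.128 and 0.109. The log2 ratios had an SD of 0.246, 0.201, 0.162 and 0.2 on arrays 1 to 4, against 0.136 to 0.203 on the arrays of the other regions. Array 1 also had the smallest share of probes well above background in both colours among the midbrain arrays, 57.3%, against 66.4% to 68.1% on the other 3.

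**Figure D1:**
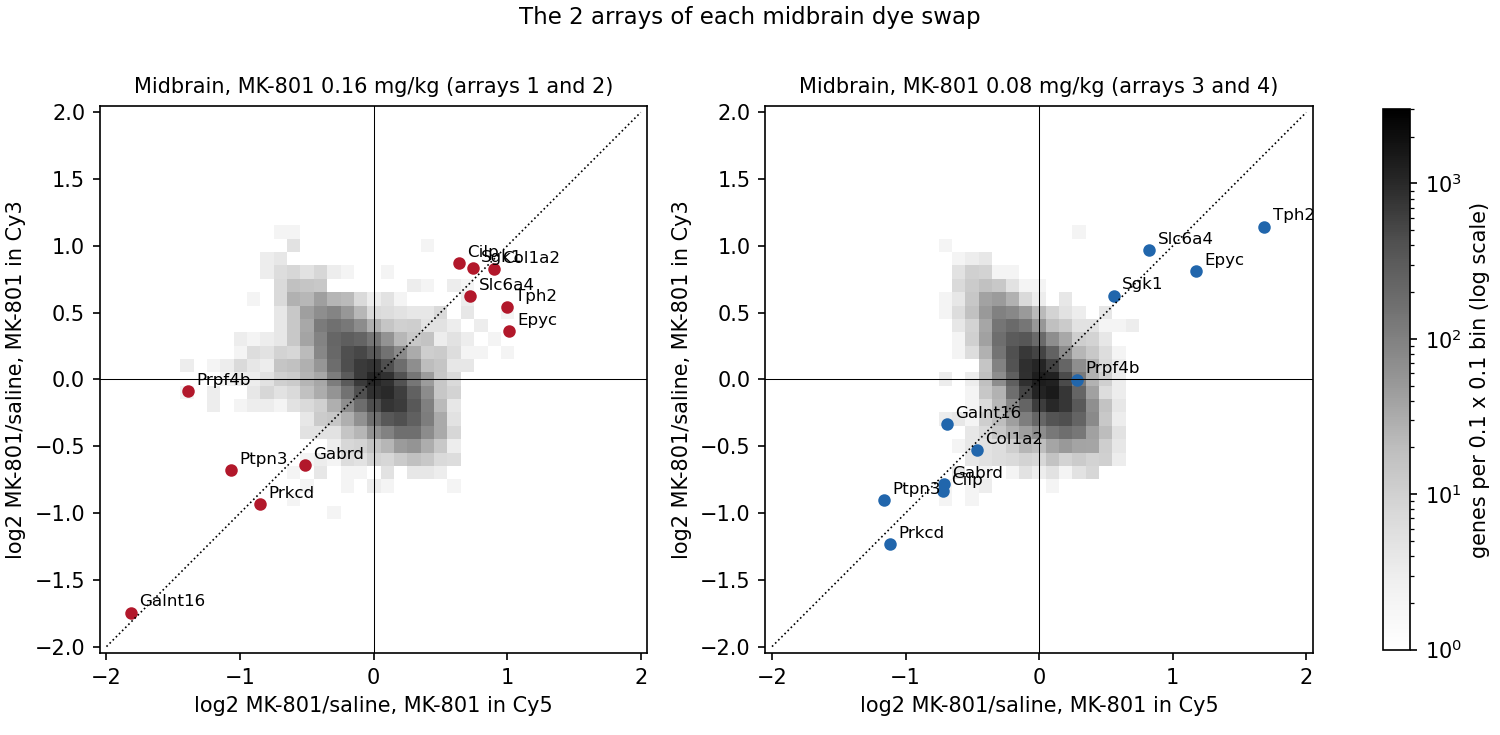
Log2 MK-801/saline on the midbrain array with MK-801 in Cy5 (x axis) and on the array with MK-801 in Cy3 (y axis) at each dose; grey squares count genes per bin on a log scale, with values beyond 2 placed in the edge bins, and coloured points are named genes. The dotted line marks equal values on both arrays. Most genes run from upper left to lower right, where the dye orientations disagree. Tph2, Slc6a4, Sgk1, Prkcd and Ptpn3 have the same sign on both arrays at both doses, and Prpf4b lies at -1.39 on array 1 and -0.090 on array 2.

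A gene was counted at a dose where the mean of the swap reached 1.5-fold (0.585 on the log2 scale) with both arrays in that direction. At the high dose 63 genes were counted, 0.324% of those measured, with 33 higher (0.17%) and 30 lower (0.154%) with MK-801. At the low dose 46 genes were counted (0.205%), 16 higher (0.0715%) and 30 lower (0.134%), and 14 genes were counted in the same direction at both doses, 0.0736% of 19024, with 8 higher (0.0421%) and 6 lower (0.0315%). The same rule applied to Cy5 over Cy3, which holds the dye in place of the drug, counted 153 genes (0.786%) at the high dose, 71 (0.317%) at the low dose and 65 (0.342%) at both. The dye thus passed the rule more often than the drug in each of the 3 counts. Both arrays passed 1.5-fold each by itself for 19 of the 63 genes, for 26 of the 46, and on all 4 arrays for 4 of the 14.

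Of the 14 genes counted at both doses, 6 have a gene symbol. Tph2, Slc6a4, Epyc and Sgk1 were higher with MK-801, and Prkcd and Ptpn3 were lower. Whether midbrain differed from the other regions was tested with limma, as the midbrain swap mean against the mean of hypothalamus, hippocampus, cortex, ventral striatum and amygdala (1 region against 5, with the lone midbrain value assumed to vary like the others). Its p-values were adjusted over all genes by the Benjamini-Hochberg method and rest on how regions of the same animals vary. For the mean of both doses 22 of 18484 genes differed (0.119%), 4 higher (0.0216%) and 18 lower (0.0974%) in midbrain. The amygdala was scanned on the same day as midbrain and the other regions on other days; each region was on its own slide, so slide and region cannot be told apart.

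Tph2 and Slc6a4, which serotonin neurons use to make and recover their transmitter, were higher with MK-801 in midbrain. Tph2, the rate-limiting enzyme of serotonin synthesis in the brain, had log2 ratios of 1.00 and 0.54 on the high-dose arrays and 1.69 and 1.14 on the low-dose arrays. All 4 values lay above those of the other 5 regions at the same dose, which were between -0.13 and 0.066 at the high dose and between 0.12 and 0.21 at the low dose. As linear ratios Tph2 stood at 1.7 and 2.67. Its midbrain value exceeded the mean of the other regions by 1.01 ± 0.062 (log2, SE; limma adjusted p = 5.24e-05), and by 1.00 against amygdala alone.

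Slc6a4, the serotonin transporter, had ratios of 0.72 and 0.63 at the high dose and 0.83 and 0.97 at the low dose. No array overlapped with the other regions, whose highest value was 0.17, and the difference was 0.77 ± 0.061 (limma adjusted p = 3.49e-04). A second Slc6a4 probe averaged 0.70 at the high dose and 0.79 at the low dose. Gchfr encodes the regulator of GTP cyclohydrolase 1, which makes the cofactor that tryptophan and tyrosine hydroxylase need. It had ratios of 0.37 and 0.17 at the high dose and 0.56 and 0.41 at the low dose, and differed from the other regions by 0.42 ± 0.058 (limma adjusted p = 0.0222), a call kept under 9 of 16 alternatives (adjusted p up to 0.206). Epyc, which encodes the matrix proteoglycan epiphycan, had ratios of 1.02 and 0.36 at the high dose and 1.17 and 0.81 at the low dose. It differed by 0.86 ± 0.076 (limma adjusted p = 6.09e-04). These 4 genes were the only ones called higher in midbrain for the mean of both doses. The calls of Tph2, Slc6a4 and Epyc were each kept under 13 of 15 alternatives. They were lost with the scanner's own log ratio (adjusted p = 0.0523, 0.0932 and 0.308) and with the deposited value table (adjusted p = 0.08, 0.129 and 0.561).

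Other genes of the serotonin list had smaller ratios than Tph2 and Slc6a4. Of its 7 genes 4 were measured well enough for the region test, and 2 of them, Tph2 and Slc6a4, were called, against 0.119% of all genes. Gata2, a transcription factor of these neurons, averaged -0.0070 at the high dose and 0.12 at the low dose. Maob, the monoamine oxidase found in serotonin neurons and glia, averaged 0.16 and 0.098, with opposite signs on the 2 arrays of each swap. Fev, a transcription factor that defines serotonin neurons, was not well above background. The median of the measured list genes was 0.157 at the high dose (n = 5 genes) and 0.107 at the low dose (n = 6), against -0.00075 and 0.00444 over all genes. The high-dose median was the value of Maob, and the low-dose median lay between Maob and Gata2. Gata2 also had opposite signs on the 2 arrays of each swap, so these medians do not describe the list as a whole. In bulk RNA a different number of cells of one type and a different amount of RNA per cell cannot be told apart.

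Dopamine neuron genes had small ratios at both doses. Th had ratios of -0.14 and 0.42 at the high dose and -0.067 and 0.42 at the low dose, so that the sign went with the dye. Slc18a2, the vesicular monoamine transporter that serotonin and dopamine neurons share, averaged 0.050 at the high dose and 0.17 at the low dose. Of 12 dopamine genes measured at the high dose and 13 at the low dose none passed 1.5-fold, against 0.324% and 0.205% of all genes. Their values ran from -0.078 to 0.15 and from -0.080 to 0.18. None of the 8 tested against the other regions was called, against 0.119% of all genes for the mean of both doses. With shares this small, a list this short would mostly hold no such gene, so these counts do not set dopamine genes apart. The medians were 0.0603 at the high dose and 0.118 at the low dose, with 9 of 12 and 11 of 13 genes above 0, so the low-dose median was above the 0.107 of the serotonin list. For the mean of both doses the median difference from the other regions was 0.122 for the 8 dopamine genes, against 0.0038 over all genes. For the 4 serotonin genes it was 0.461, which falls between the called Slc6a4 (0.767) and Maob (0.155). Gata2 differed by 0.075, so this median describes Tph2 and Slc6a4 more than the list.

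**Figure D2:**
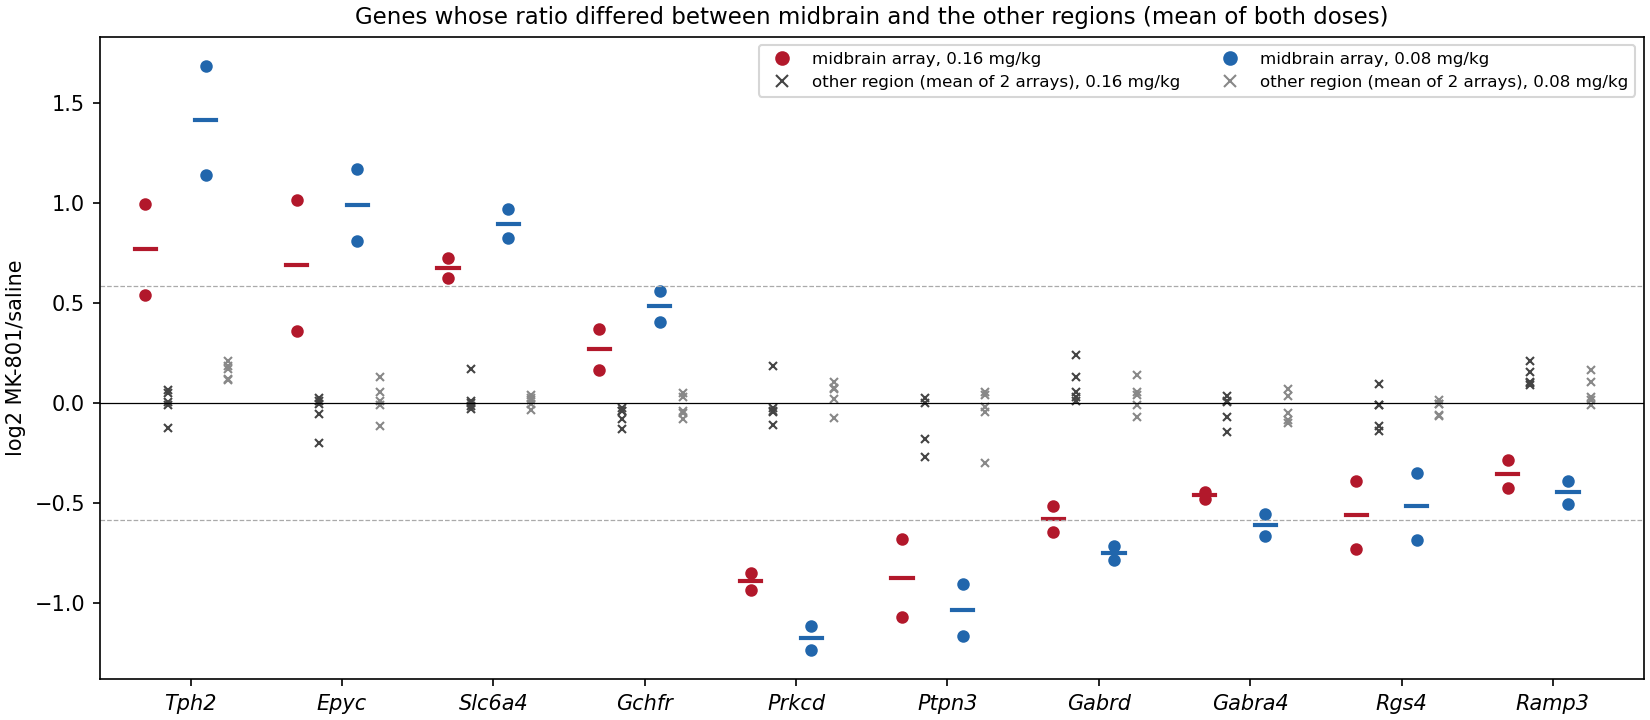
Log2 MK-801/saline (y axis) of the 4 genes called higher and 6 of the genes called lower in midbrain; points are single midbrain arrays, bars their mean, crosses the other 5 regions (means of 2 arrays), and dashed lines mark 1.5-fold. For each gene the midbrain arrays of both doses lie on one side of 0, from 0.17 for Gchfr up to 1.69 for Tph2 and from -0.29 for Ramp3 down to -1.23 for Prkcd.

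Of the 2 genes with a symbol that were counted as lower at both doses, Prkcd encodes protein kinase C delta and is a marker of thalamic relay neurons. Its ratios were -0.85 and -0.93 at the high dose and -1.12 and -1.23 at the low dose, while the other regions lay between -0.11 and 0.19. Midbrain differed from them by -1.05 ± 0.075 (limma adjusted p = 1.86e-04), and by -1.06 against amygdala alone. The calls of Prkcd and Gabrd were kept under all 16 alternatives that gave a p. Ptpn3 was kept under 7 of 10 (adjusted p up to 0.597), Gabra4 and Rgs4 under 13 of 16, Ramp3 under 14 of 16 and Cidea under 13 of 15. Each of these 5 was lost with the scanner's ratio and with the value table.

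Ptpn3, a protein tyrosine phosphatase, had ratios of -1.07 and -0.68 at the high dose and -1.16 and -0.90 at the low dose (difference -0.86 ± 0.094, limma adjusted p = 0.00581; 4 other regions had a value). A dimmer Ptpn3 probe, not well above background, averaged 0.074 and 0.15. Gabrd encodes the delta subunit of extrasynaptic GABA-A receptors. Its ratios were -0.51 and -0.64 at the high dose and -0.71 and -0.79 at the low dose (difference -0.73 ± 0.065, limma adjusted p = 6.10e-04). Gabra4 encodes the alpha 4 subunit, which pairs with delta in thalamus. It had ratios of -0.48 and -0.44 at the high dose and -0.66 and -0.55 at the low dose (difference -0.51 ± 0.069, limma adjusted p = 0.0181). These were the 2 of 16 tested genes of GABA synthesis, transport and reception that were called, both lower, against 0.0974% of all genes called lower. Gad1 and Gad2, which make GABA, averaged -0.15 and 0.055 at the high dose and 0.11 and 0.16 at the low dose. Another Gad1 probe averaged 0.026 and 0.038.

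Rgs4, a regulator of G protein signalling, averaged -0.56 at the high dose and -0.52 at the low dose (limma adjusted p = 0.00581 against the other regions). Ramp3, a receptor activity modifying protein and a thalamic marker, averaged -0.35 and -0.44 (limma adjusted p = 0.00862). Cidea, a lipid droplet protein, averaged -0.44 and -0.70 (limma adjusted p = 0.0172), and Chct1 averaged -0.43 and -0.49 (limma adjusted p = 0.0457). Chct1 kept its call under 6 of 16 alternatives.

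Markers of the thalamus, which borders the dissected block, mostly lay below 0 as well. Of the 6 on the array, 1 of 5 measured at the high dose and 0 of 6 at the low dose had a ratio above 0, with medians of -0.217 and -0.291. Besides Prkcd and Ramp3, Lef1 averaged -0.22 at the high dose and -0.41 at the low dose and Rora -0.19 and -0.17, and neither was called. Gbx2, at -0.15 at the low dose, was well above background at that dose only. Medians of the cerebellar markers were -0.0951 and -0.0876, and those of the striatal markers -0.0104 and 0.0546. The part of bordering tissue in these results was not tested.

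Genes of connective tissue, which in brain are found in meninges and vessel walls, were higher at the high dose and lower at the low dose. All 9 measured markers of meninges and fibroblasts lay above 0 at the high dose (median 0.529) and all 9 below 0 at the low dose (median -0.246). Col1a2, a chain of type I collagen, had ratios of 0.90 and 0.83 at the high dose and -0.47 and -0.53 at the low dose. Igf2, a growth factor made in meninges, averaged 0.86 and -0.23, Col3a1 0.69 and -0.29, and Col1a1 0.65 and -0.41. Further Col1a1 probes averaged 0.43 and 0.13 at the high dose and -0.066 and -0.067 at the low dose. These 4 of the 9 passed 1.5-fold upward at the high dose, against 0.17% of all genes. None of the 9 passed in either direction at the low dose, where 0.205% of all genes did. In the other regions the same list had medians of -0.167 at the high dose and -0.288 at the low dose. These regions varied widely. Col1a2 ran from -0.90 in hippocampus to 0.17 in amygdala at the high dose. At the low dose it ran from -1.16 in cortex to 0.18 in hypothalamus. At the high dose Col1a2, Igf2, Col3a1 and Col1a1 were not called against the other regions (limma adjusted p = 0.235, 0.292, 0.122 and 0.227).

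The dose difference was tested against that of the other regions, and 28 of 18484 genes were called (0.151%), 9 with a higher (0.0487%) and 19 with a lower value (0.103%) in midbrain. Cilp, a cartilage matrix protein, averaged 0.75 at the high dose and -0.78 at the low dose (high minus low, midbrain minus other regions, 1.24 ± 0.15, limma adjusted p = 0.0152). A second Cilp probe averaged 0.22 and -0.15. Des, the muscle intermediate filament desmin, averaged 0.71 and -0.12 (difference 0.765 ± 0.101, limma adjusted p = 0.017), Mustn1 0.61 and -0.22 (limma adjusted p = 0.0241) and Wnt4 0.58 and -0.22 (limma adjusted p = 0.0173). Tagln, a smooth muscle actin-binding protein, averaged 0.74 and -0.19 without a call (limma adjusted p = 0.0572). None of the 9 meningeal markers was called for the dose difference. At the high dose 1, the GABA transporter Slc6a13, was called higher (0.42, against -0.30 in the other regions, limma adjusted p = 0.00565), against 0.16% of all genes. With the array number as a block 3 genes were called in all, and Des (adjusted p = 0.0749) and Mustn1 (0.148) were not among them. The part of meninges and vessels in these results was not tested.

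Genes of oligodendrocytes, which make central myelin, had medians of 0.0774 and 0.126. Hbb, a globin of red blood cells, had the same signs in every region. It averaged 0.41 at the high dose and -0.56 at the low dose in midbrain, and 0.32 ± 0.25 and -0.54 ± 0.34 in the other regions (SD, n = 5).

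**Figure D3:**
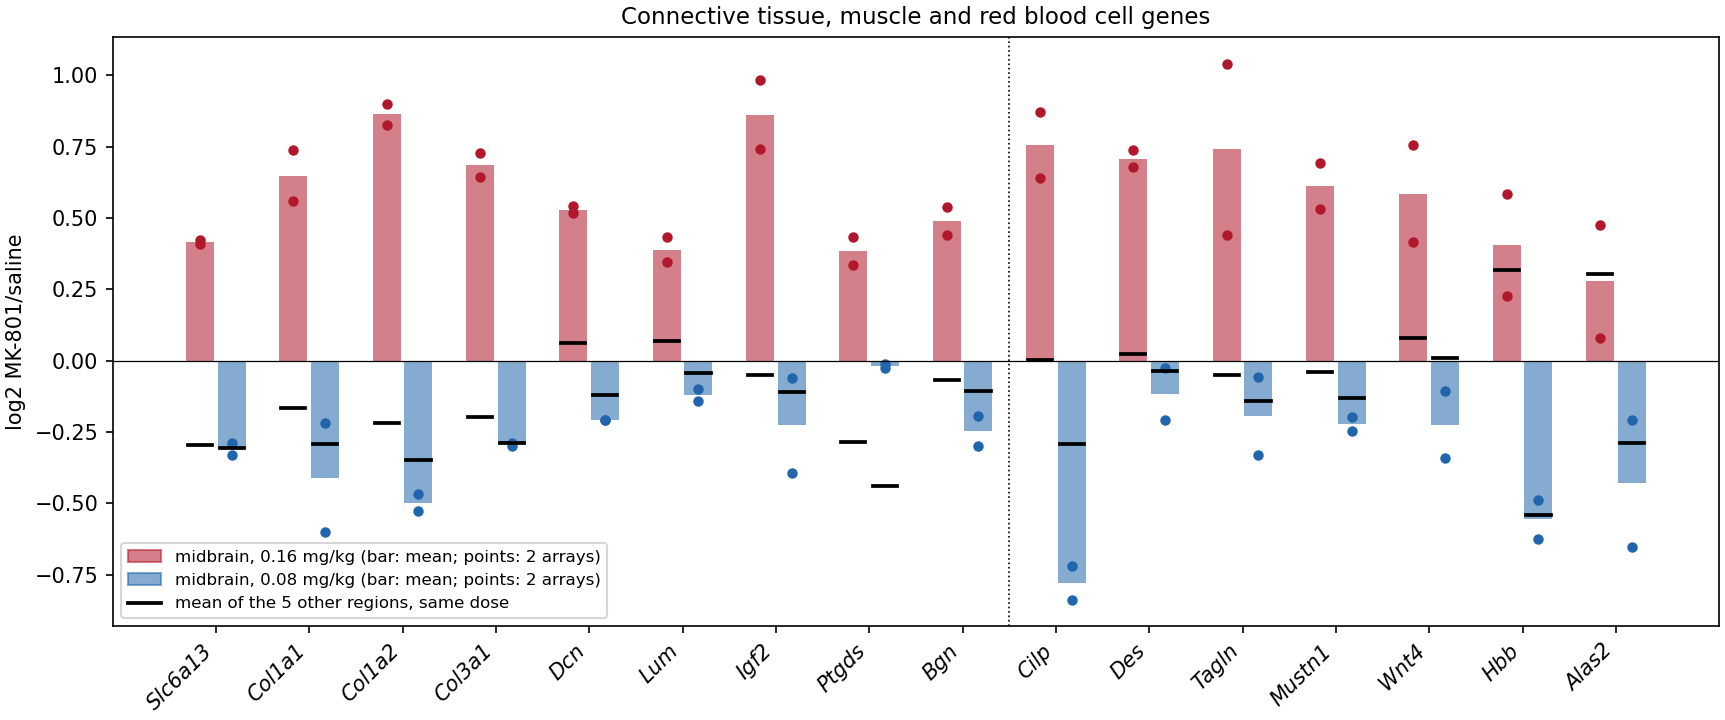
Log2 MK-801/saline (y axis) of the 9 measured meningeal and fibroblast markers (left of the dotted line) and of other connective tissue, muscle and red blood cell genes (right). Bars are midbrain swap means, points the single arrays and black lines the mean of the other 5 regions at that dose; the 9 markers lie above 0 at 0.16 mg/kg and below 0 at 0.08 mg/kg.

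Several calls rested on 1 array. Gtf3c3, a subunit of transcription factor IIIC, had -0.091 and -6.25 at the low dose, so its low-dose mean of -3.17 came from array 4, and without that array its difference from the other regions was 0.051. Prpf4b had -1.39 and -0.090 at the high dose, and its low-dose mean of 0.14 stood beside -0.18 on a second probe. On the high-dose arrays Or8s8 and Tnni2 had -1.23 and -1.21 on array 1 with -0.18 and -0.19 on array 2. The high-dose comparison with the other regions depended on which array was used: 99 of 18712 genes were called (0.529%; 30 higher, 0.16%, and 69 lower, 0.369%), and 5 were called without array 1 and its counterparts in the other regions, against 226 without array 2. At the low dose 21 of 18781 genes were called (0.112%; 5 higher, 0.0266%, and 16 lower, 0.0852%), with 17 without array 3 and 9 without array 4. Of the 28 dose-difference calls 13 had both high-dose arrays on one side of both low-dose arrays.

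Immediate early genes, transcribed soon after a stimulus without new protein synthesis, had medians of -0.0164 at the high dose and -0.0363 at the low dose in midbrain, and of 0.09 and 0.0175 in the other regions. In midbrain 2 of 41 measured at the high dose, Ccn1 and Apold1, passed 1.5-fold upward, against 0.17% of all genes, and none of 48 at the low dose did, against 0.0715%. The genes described next are among those with the highest ratios in the other regions, while Fosb (0.045 and 0.0048) and Egr1 (-0.051 and -0.22) were near or below 0 there. Ccn1, a secreted matrix protein, had ratios of 0.61 and 0.69 at the high dose and -0.060 and -0.014 at the low dose. In the other regions it lay between 1.69 and 4.16 at the high dose and between 0.65 and 3.66 at the low dose, so every one of them was above midbrain. The difference was not called (limma adjusted p = 0.354 at the high dose and 0.986 at the low dose), the SD among the other regions being 1.12 and 1.28. A second Ccn1 probe averaged 0.16 and 0.013 in midbrain and was not well above background on both high-dose arrays.

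Apold1, an early gene of vessel endothelium, had ratios of 1.15 and 0.53 at the high dose and 0.64 and -0.034 at the low dose, against 2.15 ± 0.68 and 1.13 ± 0.84 in the other regions (SD, n = 5). Btg2 averaged 0.47 and 0.21 against 1.45 ± 0.51 and 0.76 ± 0.62, and Dusp1 0.55 and 0.18 against 1.20 ± 0.29 and 0.67 ± 0.21. Fos averaged 0.15 and 0.021, with 0.63 ± 0.21 and 0.063 ± 0.24 elsewhere, and Atf3 -0.096 and -0.35, with means of 1.78 and 0.41 elsewhere. Of the 39 early genes tested against the other regions, none was called in any of the 4 comparisons, in which 0.112% to 0.529% of all genes were called. The early genes varied widely among the other regions, as the SDs of Apold1 and Btg2 show.

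**Figure D4:**
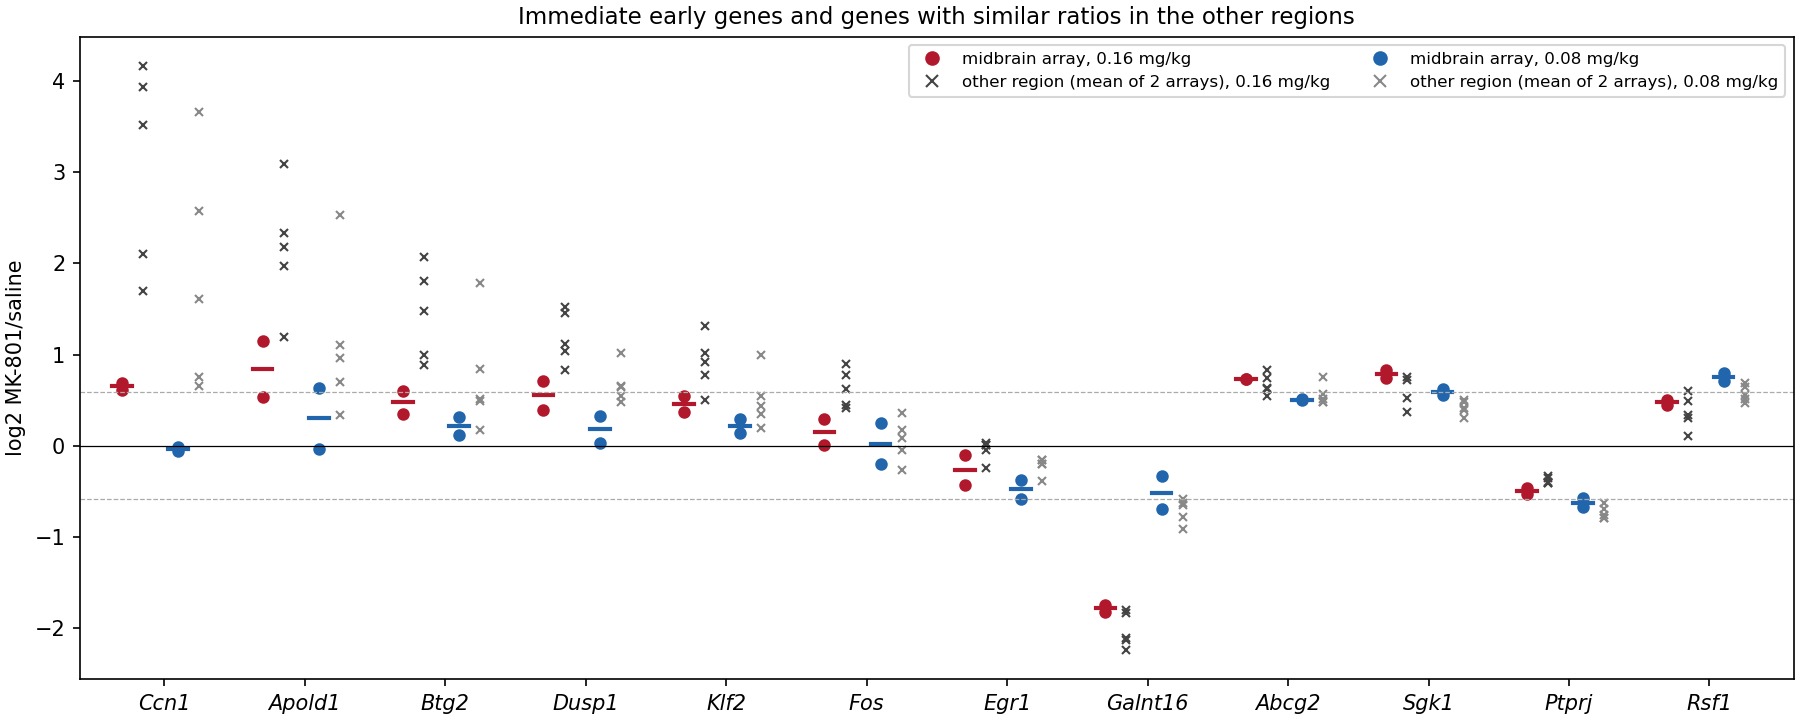
Log2 MK-801/saline (y axis) of early genes and of genes with similar ratios in all regions; points are single midbrain arrays, bars their mean, crosses the other 5 regions (means of 2 arrays), and dashed lines mark 1.5-fold. Ccn1 lies lower in midbrain than in each other region at both doses, while Galnt16 is near -1.78 in midbrain and between -1.80 and -2.24 elsewhere at 0.16 mg/kg.

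Some other midbrain changes, among them Galnt16, Abcg2 and P3h3, had similar values in the other regions. Galnt16, a glycosyltransferase, had the lowest high-dose ratio of any measured gene, -1.82 and -1.75, with -0.69 and -0.34 at the low dose, against -2.02 ± 0.20 and -0.71 ± 0.13 in the other regions (SD, n = 5). Abcg2, the efflux transporter of brain endothelium, averaged 0.73 and 0.51, against 0.68 ± 0.11 and 0.56 ± 0.11. In midbrain Ptprj averaged -0.50 and -0.63, with -0.063 and -0.26 on a probe not well above background, and Rsf1 averaged 0.48 and 0.76. RT1-CE3, a class I histocompatibility gene, averaged -0.25 and -0.75; RNA of close class I copies may also bind its probe. P3h3 had opposite directions by dose in midbrain, -0.63 and 0.55, as in the other regions, -0.76 ± 0.11 (SD, n = 5) and 0.48 ± 0.12 (SD, n = 4). A second P3h3 probe, not well above background at the high dose, averaged 0.038 and 0.088 in midbrain.

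Further genes passed 1.5-fold at one dose. Tst, the sulfur transferase rhodanese, averaged 0.77 at the high dose, with 0.85 and 0.69 on the arrays, and was called higher than in the other regions (limma adjusted p = 0.00435). Cd74, the invariant chain of class II histocompatibility proteins, averaged 0.64 at the high dose, against a mean of 0.037 elsewhere at that dose. It was not called there (limma adjusted p = 0.0573), and it averaged -0.043 at the low dose. Amy1, an amylase, averaged -0.70 at the high dose, Syde2 -0.62 and Trps1 -0.59, against -0.40, -0.37 and -0.49 elsewhere. Further Trps1 probes averaged -0.10 and 0.11. At the low dose the globins Hbb-b1 and Hba-a3 averaged -1.01 and -0.77. Elsewhere Hba-a3 averaged -0.53, and Hbb-b1 lay between -0.99 and -0.30 in the regions with a value. Ttr, a thyroid hormone carrier of choroid plexus, averaged -0.80, against -0.30 elsewhere. Haus1, a subunit of augmin, averaged -0.66, against -0.52 elsewhere, while a second Haus1 probe averaged 0.42. The olfactory receptor gene Or4f60 had 0.26 and 1.05 on the arrays.

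Genes that respond to glucocorticoids were mostly above 0 in midbrain. At the high dose 20 of 22 were (median 0.234) and at the low dose 17 of 21 (median 0.121), against 9661 of 19466 and 11694 of 22391 genes in all. In the other regions the 20 members tested had medians of 0.143 at the high dose and 0.144 at the low dose. Sgk1, a kinase induced by corticosteroids, had ratios of 0.74 and 0.83 at the high dose and 0.56 and 0.63 at the low dose. It was the 1 member past 1.5-fold at each dose, against 0.17% and 0.0715% of all genes passing upward. The other regions averaged 0.59 ± 0.18 for Sgk1 at the high dose (SD, n = 4) and 0.42 ± 0.080 at the low dose (SD, n = 5). None of the 20 members tested was called against them in the 4 comparisons, in which 0.112% to 0.529% of all genes were called. Interferon-induced genes had medians of -0.191 and -0.108, with -0.229 and -0.147 in the other regions.

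Transcripts of the measured subunits of the NMDA receptor, the target of MK-801, had small ratios. Grin1, the obligatory NMDA receptor subunit, averaged -0.074 at the high dose and -0.051 at the low dose, with opposite signs on the 2 arrays of each swap. The NMDA receptor subunits ran from -0.074 to 0.022 over the 3 measured at the high dose and from -0.092 to 0.071 over the 6 at the low dose. Grin2a and Grin2b were dim (saline log2 levels 6.97 and 6.75) and not measured at the high dose, so their ratios say little. Of 9 neuropeptide genes of the hypothalamus list measured at the high dose, 1 was called higher and 1 lower against the other regions at that dose. Over all genes 0.16% were called higher and 0.369% lower there. In saline RNA Cartpt was brightest in midbrain (log2 level 13.81, against 12.28 in ventral striatum, the next brightest region). Cartpt averaged 0.64 at the high dose and 0.49 at the low dose and was called higher at the high dose (limma adjusted p = 0.0343), a call kept under 8 of 14 alternatives (adjusted p up to 0.217). Crh, the corticotropin-releasing hormone precursor, had ratios of -0.21 and -0.84 at the high dose and was called lower (limma adjusted p = 0.0361), with -0.096 and -0.80 at the low dose. The call of Crh was not followed under the alternatives. Gal, the galanin precursor, averaged 0.20 and 0.59 and was not called (limma adjusted p = 0.526 at the low dose).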

How the data were processed

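Two-colour Agilent arrays were scanned with Agilent Feature Extraction 9.5.3.1, per the submitters' processing notes; the deposited scanner files give intensity per spot and colour, and a log10 ratio of Cy5 over Cy3, per the file headers, which name build rn3. The series' deposited value table also holds log10 ratios. From the mean intensity and median background, log2 ratios were computed with limma 3.58.1 (normexp, offset 50, loess within each array, R 4.3.3). Outlier spots were left out and spots of a probe averaged; a gene took its brightest midbrain probe. Probes were named through RefSeq accessions (10861), symbols (5542) or synonyms (3704), and 20905 kept the file's name. Genes had to be well above background in both colours on both arrays of a swap; the region tests also asked for 10 of the 20 other arrays and 4 other regions. Array number marks dye orientation, not animals, so it pairs no samples. The number of arrays limits the precision. A region difference was called at an adjusted p under 0.05. One gene counted in the totals is not reported here.

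Named were the 12 highest and 12 lowest genes past 1.5-fold at each dose and at both, the 8 highest and 8 lowest called in the region tests of the mean and of high minus low, members of fixed lists that passed a criterion or came first in their list, and genes carried over from a text on the whole series. Members and lists were chosen with earlier results of these data known. For genes described here, further probes are given where they had the other sign or were far smaller. Not every gene that the rule names is described. The list members Atf3, Crh and Fev are described although the rule did not name them. Alternatives changed the background correction, ratio, filter, fold, probe, sign rule, variance prior, regions and arrays.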

Additional observations from a re-analysis of the deposited data

Results flagged for a closer look

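The differences below between midbrain and the other 5 regions were each past the threshold of the limma test of the difference itself. For the mean of both doses, midbrain was higher for Tph2 (1.01), Epyc (0.856), Slc6a4 (0.767) and Gchfr (0.417) on the log2 scale. It was lower for Gtf3c3 (-1.62), Prkcd (-1.05), Ptpn3 (-0.86), Gabrd (-0.727), Cidea (-0.581), Chct1 (-0.516), Rgs4 (-0.508), Gabra4 (-0.506) and Ramp3 (-0.497). The Gtf3c3 value rests on array 4.

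For the high dose minus the low dose, midbrain had the higher value for Gtf3c3 (3.13), Cilp (1.24), Des (0.765), Mustn1 (0.745) and Wnt4 (0.736). It had the lower value for Prpf4b (-0.847), Rnf32 (-0.719), Or8s8 (-0.614), Guca2a (-0.605), Tnni2 (-0.59), Efcab6 (-0.577), Ogdh (-0.571) and Or7a37 (-0.563). These 8 lower values rest on array 1.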

How the results depend on the processing

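Each dose rests on 1 dye swap and a shared saline side, so no dose was tested by itself, and low signal left many genes unmeasured at one dose. With the scanner's own log ratio or the deposited value table, 210 genes passed at the high dose, 106 at the low dose and 26 at both. A 1.3-fold threshold gave 216, 153 and 47, a 2-fold threshold 1, 14 and 0, and asking 1.5-fold of each array 19, 26 and 4; without the filter 115 passed at the high dose. Leaving out 1 array gave 338 to 381 genes at the high dose, 99 to 340 at the low dose and 10 to 18 at both. With 1 array left at a dose, the rule on signs could not apply and dye and drug could not be told apart. These counts are therefore not like the main ones.

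For the region test of the mean of both doses the count was 39 without background correction, 7 with the scanner ratio, 5 with the value table, 196 without the filter, 11 with genes measured on all 24 arrays, 44 with a trended, robust prior, and 15 to 94 leaving out 1 array, the highest without array 2. At the high dose it was 22, 10, 672 and 17 for the scanner ratio, value table, no filter and all arrays, 58 without amygdala and 58 without cortex, and 5 to 226 leaving out 1 array. At the low dose it was 7, 7, 35 and 11 for those 4 settings, and 9 to 17 leaving out 1 array. For high minus low it was 83 without background correction, 5, 5, 305 and 6 for those 4 settings, 10, 94, 7 and 4 without ventral striatum, cortex, hippocampus or hypothalamus, and 1 to 214 leaving out 1 array. Keeping only genes whose arrays lay on one side, an alternative chosen after seeing the data, left 13 for high minus low. With the array number as a replicate block the counts were 49, 75, 26 and 3 for the mean, high dose, low dose and high minus low. Causes were not tested.

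Leaving out 1 array gave ranges that crossed 0 for some single genes. At the high dose, without array 2 and without array 1, the region difference was -1.25 and 0.0767 for Guca2a, -1.08 and 0.0467 for Ogdh, -1.46 and 0.0741 for Prpf4b, and -1.46 and 0.0405 for Rnf32. For high minus low it was -1.19 and 0.0379 for Efcab6, -1.27 and 0.0566 for Guca2a, and -1.47 and 0.0324 for Rnf32. Without array 3 and without array 4, Gtf3c3 stood at -6.41 and 0.0508 at the low dose, and at 6.36 and -0.103 for high minus low. The named genes' region differences under the alternatives include midbrain minus amygdala alone, which has no test. Of them all, 678 kept their direction and, where tested, their call, while 277 lost the call, 12 moved and 9 turned. Values without a test counted as kept within the SD of the other regions, and as moved beyond it.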

Other observations

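Some genes were well above background in one group only, where the ratio is a bound. At the high dose this held for 31 genes with MK-801 and 24 with saline, and at the low dose for 27 and 5. At the high dose 1 gene passed 1.5-fold with MK-801 brighter, Sycp3l2 (at least 1.67-fold higher), and 5 with saline brighter, among them Ces2a (at least 1.69-fold lower), Or52r1 (1.65) and Csf3r (1.6), with a largest bound of 1.98. At the low dose 1 unnamed transcript was at least 2.16-fold higher, and Cnmd, a cartilage protein, was at least 2.51-fold lower.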
